A study of Mus musculus with 6 samples.

Results

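Cirbp and Rbm3, the paired cold-inducible RNA-binding genes of the mouse, were examined in RNA sequencing of intestinal crypts. They are 2 of the 24736 genes in the deposited table, and they were selected on their TPM by library, because both had higher values in knockout than in wild-type crypts. That contrast is therefore given for them as a description, without a test, and tests were kept for other genes. The knockout removes the transcriptional co-repressor MTG16, which is encoded by Cbfa2t3. Crypts, the epithelial pits that hold the stem cells and Paneth cells of the gut, came from male mice aged 12 weeks, 3 wild type (WT) and 3 Mtg16-/-, none of them treated, with 1 library for each mouse. The deletion was carried by the whole animal rather than by the epithelium alone. The labels describe it as CRISPR-induced whereas the study's methods describe mice received from another laboratory, so the allele is not specified further here.

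CIRBP and RBM3 are small proteins, each with a single RNA recognition motif followed by a tail rich in glycine and arginine. They are best known for accumulating when mammalian cells are cooled slightly below body temperature and for declining when cells are warmed, the opposite of the heat shock proteins. Both bind many messenger RNAs and influence their splicing, polyadenylation, stability or translation, and CIRBP released from cells acts as an inflammatory signal. Crypts of both groups were isolated in cold buffer containing EDTA. The time that each of the 6 samples spent in the cold is not known here, and no body or tissue temperature is given in the labels.

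The deposited values were TPM, the transcript abundance of RSEM scaled to a fixed library total, a level per transcript length that can be compared between genes but does not keep the number of reads, so the depth of each library is unknown. Differences are given as Mtg16-/- minus WT on the log2(TPM + 1) scale, and 12268 genes with a mean of at least 1 TPM were tested with limma. Only 4 of these were called at a Benjamini-Hochberg adjusted p under 0.1, 2 of them higher and 2 lower, which is 0.0326% of the genes tested, whereas 1789 genes had an unadjusted p under 0.05. Groups that did not overlap, with every library of one group above every library of the other, were more common: 9.94% of tested genes were higher in this way in Mtg16-/- and 11.1% were lower. These are the shares against which counts in each list below should be read. Correlations between libraries across genes ranged from 0.931 to 0.980. Cbfa2t3 itself was at 3.67, 6.69 and 4.52 TPM in WT and at 4.62, 6.43 and 3.23 TPM in Mtg16-/- (log2 difference -0.06, adjusted p = 0.937). The targeted gene thus did not separate the groups, a gene-level value cannot show a missing exon, and every direction rests on the labels: "Mtg16-/-" stands throughout for the libraries labelled Mtg16-/-.

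Cirbp, on chromosome 10 of GRCm38 from 80165990 to 80172786, was at 19.46, 24.12 and 22 TPM in the WT libraries 1, 2 and 3. In Mtg16-/- libraries 1, 2 and 3 it was at 47.13, 51.46 and 58.34 TPM. All 3 knockout values lay above all 3 WT values. The mean was 21.9 ± 2.33 TPM (SD, n = 3) in WT and 52.3 ± 5.65 TPM (SD, n = 3) in Mtg16-/-, a ratio of 2.39 and a log2 difference of 1.22 (SE 0.14). The lowest knockout library was 1.95 times the highest WT library, and the widest pair of libraries differed 3.00-fold. Replicates of Cirbp lay close together, with a coefficient of variation of 10.7% in WT and 10.8% in Mtg16-/-. Among the genes tested, 50 had a larger positive difference.

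Rbm3, on chromosome X from 8138975 to 8145880, was expressed at a higher level and with a wider spread. Its values were 152.76, 188.94 and 238.24 TPM in WT libraries 1, 2 and 3. They were 323.07, 410.99 and 509.4 TPM in the Mtg16-/- libraries. The groups again did not overlap, as in 9.94% of all tested genes in this direction, but the gap was narrower than for Cirbp, since the lowest knockout library exceeded the highest WT library by a ratio of 1.36. The mean was 193 ± 42.9 TPM (SD, n = 3) in WT and 414 ± 93.2 TPM (SD, n = 3) in Mtg16-/-, a ratio of 2.14 and a log2 difference of 1.10 (SE 0.22). The coefficient of variation was 22.2% in WT and 22.5% in Mtg16-/-. On the log2 scale the SD within groups was 0.323 for Rbm3 and 0.15 for Cirbp, one above and the other below the median of 0.210 over all tested genes. For Rbm3, 71 tested genes had a larger positive difference.

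**Figure D1:**
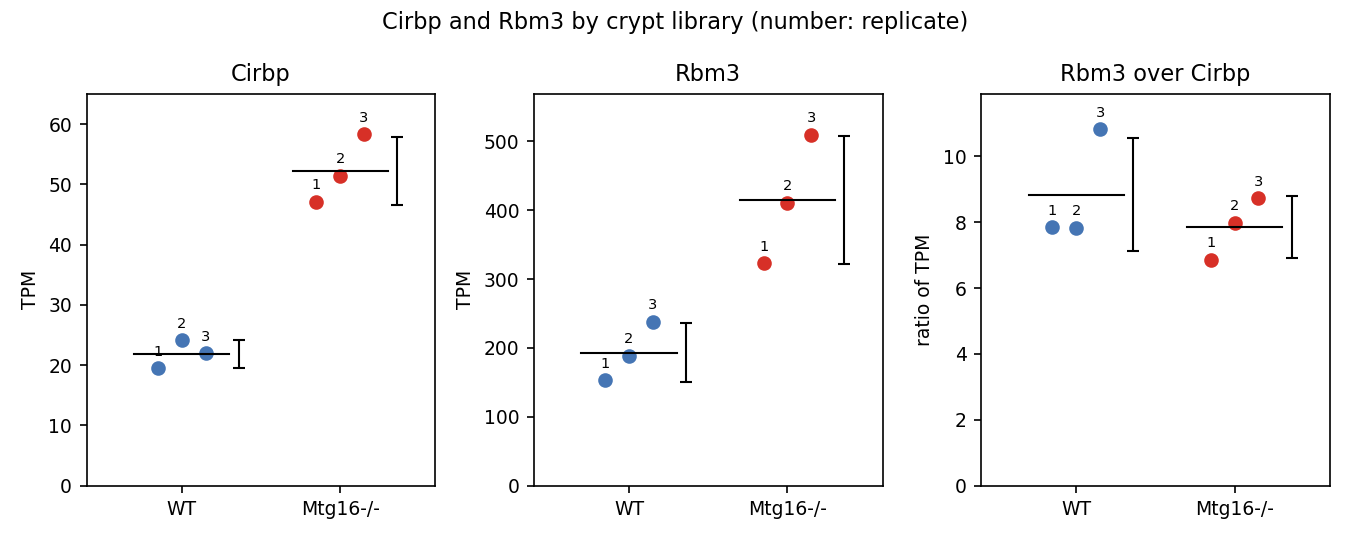
TPM of Cirbp and of Rbm3 and the ratio of their TPM in each crypt library, with WT in blue and Mtg16-/- in red, the replicate number beside each point, a line at the group mean and a bar of 1 SD either side (n = 3). Both genes had higher values in the 3 Mtg16-/- libraries than in the 3 WT libraries, while the ratio of Rbm3 to Cirbp overlapped between the groups.

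The pair kept a similar proportion to each other. Rbm3 TPM was 7.85, 7.83 and 10.8 times that of Cirbp in WT and 6.85, 7.99 and 8.73 times in Mtg16-/-, so the ratio overlapped between the groups (8.84 ± 1.72 against 7.86 ± 0.945, SD, n = 3). WT library 3 stood above the rest, having the highest Rbm3 of its group without the highest Cirbp. Ranked by level among all tested genes, Cirbp lay between positions 5470 and 6445 in WT and between 2408 and 3100 in Mtg16-/-. Rbm3 already lay between 597 and 1059 in WT, and between 291 and 418 in Mtg16-/-.

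These levels are sums over transcripts. The annotation release behind the sums is not known here, so the forms below need not be those summed. GENCODE M21 lists 7 transcripts of Cirbp, of which 2 code for protein, 1 is a target of nonsense-mediated decay and 4 retain an intron. For Rbm3 it lists 11, of which 6 code for protein, 2 are targets of nonsense-mediated decay, 2 retain an intron and 1 is processed. Splicing of both genes is known to respond to temperature, but a gene-level TPM cannot tell these forms apart. Rbm3 also overlaps an antisense gene, Rbm3os (X, 8145427 to 8147964), which was at 0, 1.22 and 0.34 TPM in WT and 1.4, 2.7 and 0.92 TPM in Mtg16-/-. Rbm3os overlapped between groups (log2 difference 0.84, adjusted p = 0.351), and its level was small beside that of Rbm3. Whether the counting used strand is not given in the sources used here, so reads of the overlap cannot be assigned to one gene with certainty.

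The upstream sequence of Cirbp is shown because a short element that answers to mild cold has been described in its promoter. The stretch begins 250 bases before the RefSeq start at 80167839. It ends at the base before the start of the principal GENCODE transcript at 80167778. It is on the plus strand of GRCm38 (chr10:80167589-80167777), with sequence from RefSeq. Because the annotated Cirbp interval begins at 80165990, the stretch lies within that interval and is upstream of these named starts only. Capitals mark the element TCCCCGCC, at -247 to -240 from the RefSeq start, and an E-box core CAGATG, a form that ATOH1 can bind, at -109 to -104.

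Cirbp upstream: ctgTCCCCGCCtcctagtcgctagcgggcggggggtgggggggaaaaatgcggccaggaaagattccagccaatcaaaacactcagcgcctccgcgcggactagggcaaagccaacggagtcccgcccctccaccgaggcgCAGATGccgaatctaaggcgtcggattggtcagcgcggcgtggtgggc

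Searched on both strands in the 250 bases upstream of each RefSeq start, TCCCCGCC was found in 4.64% of 32851 windows and CAGATG or CAGCTG in 25.5%. The GC box GGGCGG, the core bound by SP1, was found 3 times in this Cirbp window and in 32.7% of all windows, and it can overlap the other motifs. The window was richer in G and C than most, at 65.6% against a median of 52.4%. Neither the heat shock element core, GAANNTTC or TTCNNGAA, nor the clock E-box CACGTG was found in the Cirbp windows, and these were found in 12.8% and 6.02% of all windows. The sequence table held 2 windows for Cirbp and none for Rbm3. In the second Cirbp window, TCCCCGCC, CAGATG and CAGCTG were not found. These matches describe letters in a window and show no binding.

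Genes beside the pair on the chromosome overlapped between the groups. The 3 tested genes on either side of Cirbp were Cbarp, Atp5d, Midn, 1600002K03Rik, Mum1 and Ndufs7, and in all 6 the groups overlapped, with log2 differences between -0.55 and 0.23 and a lowest adjusted p of 0.351. The nearest, 1600002K03Rik, begins 158 bp beyond Cirbp and was at 14.4, 14.18 and 19.2 TPM in WT against 7.43, 15.07 and 10.07 TPM in Mtg16-/-. Around Rbm3 the tested genes were Suv39h1, Was, Wdr13, Tbc1d25, Ebp and Porcn, again with overlapping groups in all 6, log2 differences between -0.30 and 0.33 and a lowest adjusted p of 0.438.

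The closest relatives by name were compared next. Of 37 other genes with a symbol of Rbm and a number, which encode proteins with RNA recognition motifs and diverse roles in RNA processing, 32 were tested. None was called, 2 were higher without overlap (6.25%) and 5 were lower (15.6%), and their median log2 difference was -0.06 beside -0.03 for all tested genes. The range, from -0.45 to 0.28, did not reach the values of Cirbp or Rbm3. The widest were Rbm19, a factor of ribosome biogenesis (17.13, 27.35 and 24.69 TPM in WT, 14.64, 18.93 and 15.69 TPM in Mtg16-/-), Rbm15, a component of the RNA adenosine methylation machinery (log2 difference -0.38, adjusted p = 0.333), and Rbm47, a cofactor of apolipoprotein B RNA editing (log2 difference -0.35, adjusted p = 0.340). Within these 34 genes, counting Cirbp and Rbm3, Rbm3 had the highest or second highest level in every library, and Cirbp ranked between 7 and 24.

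A second set held 13 tested genes of 14 for other RNA recognition motif proteins with glycine-rich regions. None was called and 4 were higher without overlap (30.8%), with a median log2 difference of 0.19. Hnrnpd, which encodes the mRNA decay factor AUF1, was at 41.80, 46.52 and 42.41 TPM in WT and 50.82, 58.60 and 62.72 TPM in Mtg16-/- (log2 difference 0.39, adjusted p = 0.279). In Hnrnpd the groups were separate, but by less than in Cirbp or Rbm3, and the test across all genes did not call it. Hnrnpdl and Rbmx, the latter a nuclear regulator of splicing, were each 0.19 higher on the log2 scale (adjusted p = 0.466 and 0.446). Several genes of this set have near-identical processed copies in the genome, and how reads were divided between them is uncertain. With an enterocyte marker score as a covariate, the median of this set turned to -0.05.

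Cold-shock domain proteins are named for bacterial cold-shock proteins and have a different fold. Of 8 such genes 5 were tested, none was called, and the median log2 difference was 0.17. Carhsp1, which stabilises TNF mRNA, was the only one with separate groups, at 45.66, 55.56 and 52.79 TPM in WT and 62.80, 60.97 and 75.17 TPM in Mtg16-/- (log2 difference 0.36, adjusted p = 0.307). Ybx1, the most abundant of them, differed by 0.01. No gene of these 3 sets had a difference as large as that of Cirbp or Rbm3.

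**Figure D2:**
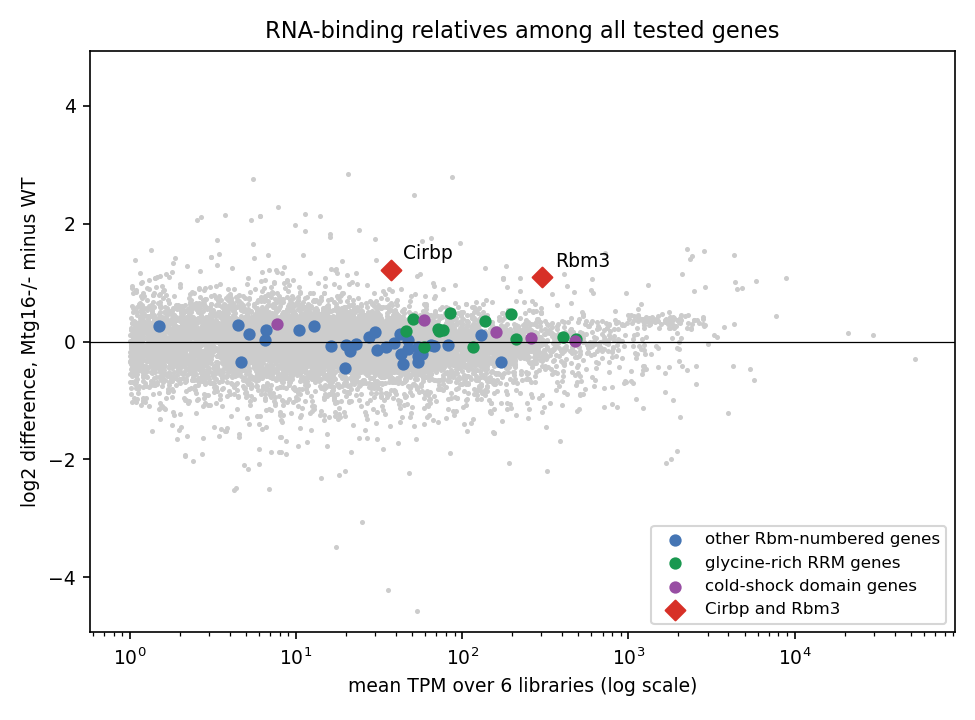
Log2 difference of log2(TPM + 1), Mtg16-/- minus WT, against the mean TPM over the 6 libraries on a log axis, with all 12268 tested genes in grey, the 32 other Rbm-numbered genes in blue, 13 glycine-rich RNA recognition motif (RRM) genes in green, 5 cold-shock domain genes in purple and Cirbp and Rbm3 as red diamonds. The relatives lay between -0.45 and 0.49, below Rbm3 at 1.10 and Cirbp at 1.22.

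Genes reported to act on the level of Cirbp or Rbm3 were read as a list of 9, of which 7 were tested. None was called and their median log2 difference was -0.27. The CLK kinases, whose activity on SR splicing factors rises as temperature falls, had negative differences. Clk3 was at 43.39, 39.29 and 40.21 TPM in WT and 35.47, 32.48 and 28.71 TPM in Mtg16-/- without overlap (log2 difference -0.34, adjusted p = 0.303). Clk1, Clk2 and Clk4 overlapped, with differences of -0.27, -0.33 and -0.28. Hnrnph1, which promotes skipping of a poison exon in Rbm3, differed little between the means (0.02, adjusted p = 0.956). Hsf1, the heat shock factor, differed by -0.27 and Sp1 by 0.14, both with overlapping groups. Trpv4, a temperature-sensitive channel, and Ntrk2, a neurotrophin receptor, were below the filter.

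SR proteins and their TRA2 relatives, the splicing factors on which CLK kinases act, gave 12 tested genes of 13. None was called and 2 were higher without overlap (16.7%), with a median of 0.12 that turned to -0.20 when the enterocyte score was a covariate. The separate genes were the pair of TRA2 splicing activators. Tra2b was at 58.09, 69.70 and 68.24 TPM in WT and 74.28, 91.12 and 114.32 TPM in Mtg16-/- (log2 difference 0.49, adjusted p = 0.293). Tra2a differed by 0.30 (adjusted p = 0.312). Of the other 10 genes, all overlapping, Srsf1 and Srsf3 were higher by 0.12 and 0.15 and Srsf5 differed by -0.14.

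Genes for proteins that work with the pair did not separate the groups. Of 7 partner genes, none was called, all 7 overlapped, and the median log2 difference was 0.05. Tnpo1, the importin that carries CIRBP into the nucleus, differed by 0.09, Prmt1, which methylates its arginine-rich tail, by 0.05, and the stress granule genes G3bp1 and Tia1 by 0.02 and 0.18. The adjusted p ranged upward from 0.451 (Elavl1, a stabiliser of AU-rich mRNAs).

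Reported targets did not share a sign. Among 6 tested of 7, none was called, 1 was higher and 1 lower without overlap, and the median was -0.10. Rpa2, a replication protein whose mRNA CIRBP binds, was at 25.94, 34.06 and 33.47 TPM in WT and 35.03, 39.00 and 40.99 TPM in Mtg16-/- (log2 difference 0.30, adjusted p = 0.381). Vegfa, the vascular growth factor, was at 73.54, 36.08 and 43.77 TPM in WT and 35.05, 29.21 and 18.06 TPM in Mtg16-/- (log2 difference -0.86, adjusted p = 0.297). Vegfa separated the groups only narrowly, since WT library 2 and Mtg16-/- library 1 were nearly equal. Txn1, the thioredoxin whose mRNA CIRBP stabilises, and Rtn3, a synaptic target of RBM3, differed by 0.04 and -0.03. Of the receptors for extracellular CIRBP, Ly96, the co-receptor MD-2 of TLR4, was at 5.24, 3.94 and 5.85 TPM in WT and 7.53, 9.39 and 8.98 TPM in Mtg16-/- (log2 difference 0.69, adjusted p = 0.254), while Tlr4 and Trem1 were at or below 0.32 TPM in every library.

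Circadian genes were examined because CIRBP is known to bind clock mRNAs and because both genes cycle with body temperature. Of 21 genes 19 were tested, none was called, 3 were lower without overlap (15.8%) and none was higher, with a median of -0.14. Cry1, a repressor of the clock, was at 15.78, 12.15 and 12.60 TPM in WT and 7.49, 5.13 and 7.29 TPM in Mtg16-/- (log2 difference -0.93, adjusted p = 0.171). Per2, the partner repressor and a gene that also responds to temperature through HSF1, was at 35.69, 17.23 and 23.94 TPM in WT and 13.27, 14.53 and 12.14 TPM in Mtg16-/- (log2 difference -0.84, adjusted p = 0.263). Arntl, which encodes the activator BMAL1, differed by -0.58 (adjusted p = 0.312). Clock, the mRNA most often named as a CIRBP target, differed by -0.11 with overlapping groups. Dbp, an output gene of high daily amplitude, spread from 16.61 to 57.36 TPM within WT and differed by -0.03. The hour of collection is not stated for the mice, and without WT library 2 the median of the list was -0.39.

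Heat shock genes, which respond to temperature the opposite way, had negative differences. Of 23 chaperone and co-chaperone genes on the heat shock list, not all of them mainly heat-inducible, 19 were tested. All 19 had a negative log2 difference, 11 were lower without overlap (57.9% beside 11.1% of all tested genes) and the median was -0.41. None was called. Hspa1b, the inducible HSP70, was at 7.21, 8.51 and 15.41 TPM in WT and 2.07, 1.66 and 1.06 TPM in Mtg16-/- (log2 difference -2.08, adjusted p = 0.104). Its near-identical copy Hspa1a was at 1.80, 1.57 and 4.18 TPM in WT and was listed at 0, 0 and 0.61 TPM in Mtg16-/-, and reads cannot be divided between these copies with certainty. Hsph1, a nucleotide exchange factor of HSP70, was at 91.46, 110.36 and 201.19 TPM in WT and 27.32, 37.06 and 37.51 TPM in Mtg16-/- (log2 difference -1.88, adjusted p = 0.104). Hsp90aa1, the inducible HSP90, was at 445.33, 527.67 and 651.01 TPM in WT and 224.71, 258.23 and 282.18 TPM in Mtg16-/- (log2 difference -1.07, adjusted p = 0.121). Other members differed less, including the co-chaperone genes Dnajb1 (-0.05) and Bag3 (-0.01), whose groups overlapped.

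For Hspa1b, Hsph1 and Hsp90aa1 the opposite signs held between the groups. Among the libraries of a group, only Hspa1b in Mtg16-/- ran opposite to Rbm3. In WT, library 3 had the highest Rbm3 and also the highest Hspa1b, Hsph1 and Hsp90aa1, and library 1 had the lowest of all 4. In Mtg16-/-, library 3 had the highest Rbm3, the highest Hsph1 and Hsp90aa1 and the lowest Hspa1b. With 3 libraries a group this is a description of these mice and no correlation was computed.

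Most genes of a list of endoplasmic reticulum chaperones were lower as well. The list also holds other genes of the response to unfolded secretory proteins, among them Xbp1, Ddit3 and Atf6. All 19 genes of the list were tested, 15 were lower without overlap (78.9%) and the median was -0.64. The other 4 overlapped, with differences of 0.24 for Dnajb9, 0.01 for Atf6, -0.12 for Herpud1 and -0.31 for Edem1. Creld2, a stress-inducible secretory protein of that compartment, fell and was the only gene of any list here that passed the test: it was at 104.19, 104.71 and 132.14 TPM in WT and 50.06, 50.35 and 51.00 TPM in Mtg16-/- (log2 difference -1.15, adjusted p = 0.0894). That call held in 6 of 17 other fits and was lost without WT library 2 or 3 or any 1 of the Mtg16-/- libraries, with adjusted p between 0.118 and 0.512, while the log2 difference stayed between -1.27 and -1.04. Hspa5, the central chaperone BiP, was at 705.49, 624.08 and 767.65 TPM in WT and 383.56, 382.37 and 359.31 TPM in Mtg16-/- (log2 difference -0.89, adjusted p = 0.104). Lower values were thus found in chaperone genes of both kinds. Immediate early genes, which respond within minutes to handling, had a median of -0.46 over 12 tested genes with 3 lower without overlap and none called. Fosb was at 3.6, 0.63 and 2.02 TPM in WT and 0.60, 0.41 and 0.19 TPM in Mtg16-/- (log2 difference -1.03, adjusted p = 0.306), and Ier2 differed by 0.09.

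**Figure D3:**
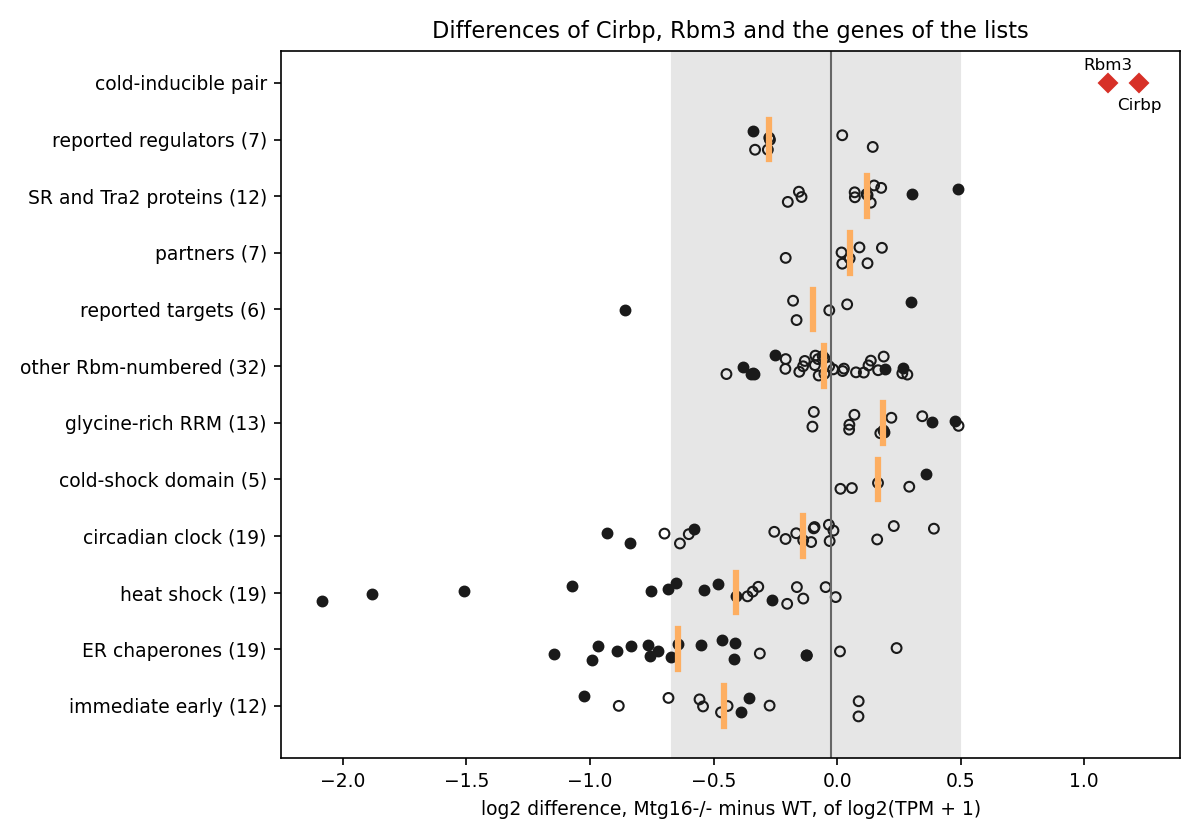
Log2 difference of log2(TPM + 1), Mtg16-/- minus WT, for Cirbp and Rbm3 (red diamonds) and for each tested gene of 11 lists (number in brackets), with filled points where the groups did not overlap, open points where they did, an orange bar at the list's median, a grey band from the 5th to the 95th percentile of all tested genes (-0.67 to 0.50) and a grey line at their median. All 19 heat shock genes lay below 0, and no gene of these lists reached Rbm3.

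**Figure D4:**
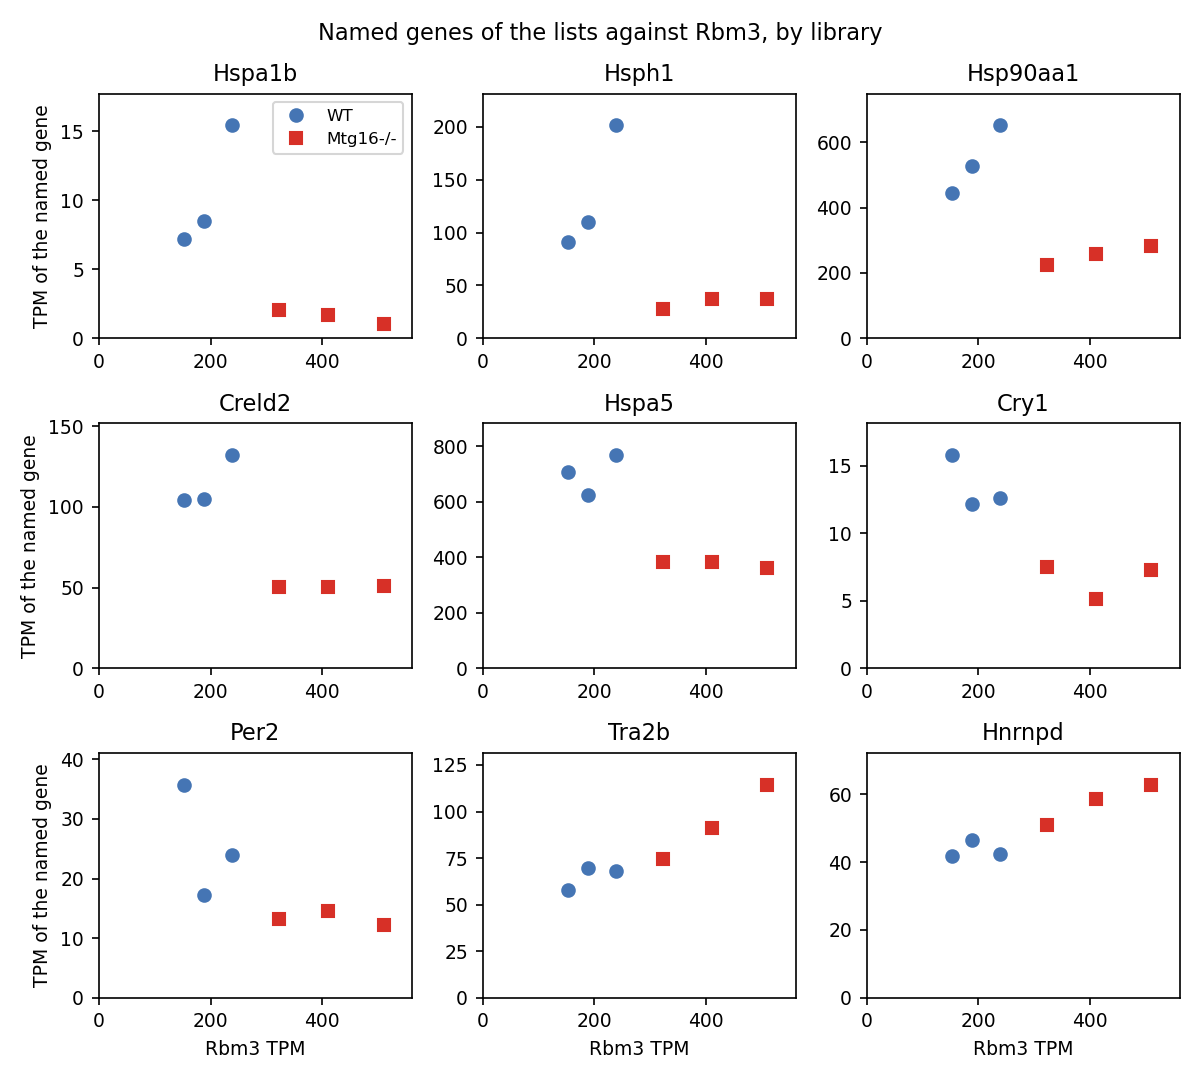
TPM of 9 named genes against Rbm3 TPM, one point for each library, with WT as blue circles and Mtg16-/- as red squares, and every vertical axis starting at 0. The panels show named genes picked from those whose groups did not overlap, so the separation in every panel was set by that choice. Hspa1b, Hsph1, Hsp90aa1, Creld2, Hspa5, Cry1 and Per2 were lower in Mtg16-/- and Tra2b and Hnrnpd higher. In their lists, 8 of 19 heat shock, 4 of 19 endoplasmic reticulum, 16 of 19 clock, 10 of 12 SR and 9 of 13 glycine-rich genes overlapped. Within WT, Hspa1b, Hsph1 and Hsp90aa1 were highest in the library with the highest Rbm3.

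Summed marker levels of several cell types differed between the groups along with the pair, though no gene of these marker lists was called. The 7 general epithelial markers, which mark villus as well as crypt, summed to between 8985 and 10268 TPM in every library. Among these 7, Cdx2 and Krt18 were higher without overlap (log2 differences 0.45 and 0.19). The other 5 overlapped, with Vil1 at -0.70. Markers of the crypt base, given below, were present in all 6 libraries. Of 10 markers of stroma, vessel and blood, 6, including Col1a1, Pdgfra and Kdr, were below the filter. The other 4 were tested, and all overlapped between the groups. Vim was at 9.29 to 13.91 TPM, Pecam1 at 0.70 to 2.41 TPM and Hba-a1 at 0 to 25.08 TPM. Hbb-bs was detected only in Mtg16-/- library 3, at 13.19 TPM. The summed level of 9 enterocyte markers was 10407 to 31287 TPM in WT and 5399 to 10274 TPM in Mtg16-/-, highest in WT library 1, which also had the lowest Cirbp and Rbm3. That of 8 Paneth cell markers was 9681 to 22040 TPM in WT and 26839 to 34060 TPM in Mtg16-/-, and that of 5 stem cell markers 768 to 1338 TPM in WT and 1443 to 1878 TPM in Mtg16-/-. Enteroendocrine markers (5 genes) summed to between 197 and 247 TPM in WT and between 304 and 313 TPM in Mtg16-/-. Abundant genes carry such sums, as Olfm4 (646.60 to 1610.74 TPM) did in the stem set. Gene by gene, the groups overlapped in 5 of 9 enterocyte and 2 of 8 Paneth markers, the latter Mmp7 and Pla2g2a. They also overlapped in 2 of 5 stem markers (Ascl2 and Smoc2) and 1 of 5 enteroendocrine markers (Sct). The summed levels of goblet markers (5 genes) and immune markers (9 genes) overlapped between the groups, with median log2 differences of -0.47 over 5 and -0.44 over 8 tested genes. Among them the goblet genes Clca1 and Zg16 were lower without overlap (-0.89 and -1.28) and Jchain, of antibody-secreting cells, was higher without overlap (1.23), none of them called. In bulk crypts, more cells of a type and more RNA per cell cannot be told apart, so the level of Cirbp or Rbm3 in any 1 cell type is not given by these values.

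With the enterocyte marker score as a covariate the log2 difference was 0.98 (SE 0.15) for Cirbp and 0.66 (SE 0.22) for Rbm3. The Rbm3 difference was thus 1.10 without and 0.66 with this term, and its sign and that of Cirbp were the same in both. WT library 2 and Mtg16-/- library 1 had the closest enterocyte scores of any pair across the groups, at -0.04 and -0.02. There Cirbp was at 24.12 and 47.13 TPM and Rbm3 at 188.94 and 323.07 TPM. That is 1 library against 1, and their Paneth marker scores were 0.19 and 0.62 and their stem marker scores -0.11 and 0.11. Whether cell makeup accounts for the difference was not tested. Under the same covariate the median of the heat shock list was -0.65. The part played by Paneth, stem and enteroendocrine cells was not tested.

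Genes with the most similar profile were ranked by the root mean square difference of log2(TPM + 1) after centring each gene on its mean over the 6 libraries. Nearest to Cirbp were Gcg, the proglucagon gene of enteroendocrine L cells (0.152), Acss3, a mitochondrial acyl-CoA synthetase (0.174), Gm2115 (0.187), Mettl7a1 (0.191) and Rbm3 itself (0.196). Rbm3 was therefore 5th of all tested genes for Cirbp, whereas Cirbp was 18th for Rbm3. Gcg was at 34.98, 39.3 and 29.12 TPM in WT and 70.73, 68.76 and 93.93 TPM in Mtg16-/-. Nearest to Rbm3 were the sulfotransferase gene Sult1a1 (0.113), Coq8a of coenzyme Q synthesis (0.129), the centromere gene Oip5 (0.154), Marcks, a substrate of protein kinase C (0.158), and the pseudogene Rpl14-ps1 (0.163). Coq8a was at 13.96, 17.34 and 23.25 TPM in WT and 31.76, 36.08 and 38.95 TPM in Mtg16-/-, in the same order of libraries as Rbm3. Acss3, Gm2115 and Sult1a1 had WT means of 0.42, 0.56 and 0.56 TPM and Mtg16-/- means of 1.64, 1.97 and 2.28 TPM. These 3 genes reached the filter of 1 TPM only through the knockout libraries. At such levels the added 1 TPM shapes the profile. The ranking uses the contrast that chose the pair and is a description only.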

How the data were processed

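Total RNA from isolated crypts was depleted of ribosomal RNA and made into libraries from 200 ng with 14 PCR cycles, as the labels state. The submitters' processing notes name cutadapt 1.9.1, STAR 2.5.2a, RSEM 1.3.0, DESeq2 1.12.3 and build mm10. The authors deposited TPM from RSEM in 1 table for 24736 gene symbols. TPM keeps no read number, so no count test, counting interval or floor was used. Genes with a mean of at least 1 TPM were fitted on log2(TPM + 1) with limma 3.58.1 (R 4.3.3, intensity trend, 6 libraries) and a Benjamini-Hochberg adjustment over all 12268 genes. The fit was tested on simulated data. RefSeq matched 24641 symbols. Replicates are separate mice, 3 per group.

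The members and lists were chosen with earlier results of these data known. Named are the members, Cbfa2t3, for each list the called genes or up to 4 with the widest difference and separate groups, genes whose role is described, 3 Rbm-numbered genes of widest difference, 3 tested neighbours on each side and the 5 nearest profiles. An item that this rule would name is not reported here.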

Additional observations from a re-analysis of the deposited data

How the results depend on the processing

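Over 15 alternatives each, the difference was above 0 in 15 of 15 for Cirbp and for Rbm3. That sign is no support, because both genes were chosen for it and their groups did not overlap. Leaving out a library could not reverse it, and the filters and the replicate block could not move the estimate. With single libraries left out, the difference ran from 1.14 to 1.29 for Cirbp and from 0.93 to 1.26 for Rbm3. With the enterocyte score as a covariate it was 0.98 and 0.66. Under that covariate the list medians were -0.20 for SR proteins and -0.052 for glycine-rich RNA recognition motif genes, both turned in sign, and -0.65 for heat shock genes. Library weights gave a median of -0.12 for the regulators, and quantile normalization gave 0.29 for cold-shock domain genes and -0.53 for endoplasmic reticulum chaperones. With single libraries left out, medians ran from -0.39 to -0.046 for the clock list, from -0.14 to -0.017 for the other Rbm-numbered genes, from -0.50 to -0.26 for heat shock genes and from -0.65 to -0.57 for endoplasmic reticulum chaperones. The count of called genes, 4 of 12268, depended on the settings. It was 0 at an adjusted p under 0.05, with no filter, with median-ratio size factors, without the 50 most abundant genes, with the enterocyte covariate and with no intensity trend, 1 with quantile normalization, 15 with a mean TPM of at least 5, 20 with robust moderation and 855 with library weights, and between 0 and 20 with single libraries left out. The cause was not tested. Same-numbered libraries correlated in their deviations from the group means at 0.429, 0.0753 and 0.237, and 5 of 6 libraries correlated best with their own number. Since 1 of the 3 correlations was under 0.1 and the labels tie the numbers to no litter, batch or day, the numbers were not taken as pairs. A replicate block gave 1201 called genes of 12268, 385 higher and 816 lower. The lower genes included 13 of 19 endoplasmic reticulum chaperone, 9 of 19 heat shock, 5 of 19 clock and 9 of 9 enterocyte genes. The higher genes included 5 of 8 Paneth and 3 of 5 stem cell genes. By its construction the block left the difference of Cirbp at 1.22 and of Rbm3 at 1.10.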
